A study of Mus musculus with 12 samples.

Results

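Grb10 and Ddc are neighbouring genes of mouse chromosome 11, and their DNA methylation was read from 116 of the 421177 CpG positions of the deposited table, in the left ventricle of 12 young mice. Members were all listed positions inside either gene or within 5 kb of it, with gene borders from RefSeq (GRCm38.p6, the assembly called mm10 in the submitters' processing notes). Grb10 spans chr11:11930499-12037428 on the minus strand and gave 105 positions, of which 89 lay inside the gene and 16 upstream of it. Ddc spans chr11:11814101-11898144, also on the minus strand, and gave 11 positions, of which 5 lay inside the gene, 1 upstream and 5 downstream. Positions were taken by their location alone, while the pair of genes was picked with earlier results of these data known. In 68 of the Grb10 positions and 8 of the Ddc positions all 12 samples had a value.

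All animals were wild-type FVB/N offspring at 3 weeks of age. Their FVB/NJ mothers ate either a high-fat diet (HFD) or the laboratory's regular diet (RD). Feeding began when the females were 6 weeks old, RD-fed males were introduced 8 weeks later, and each mother stayed on the same diet. The HFD group held 3 female and 3 male offspring, and the RD group held 4 females and 2 males. How many mothers gave these offspring is not given in the sources used here, so p-values measure the spread between samples, which may include littermates. Samples are named by diet, sex and the number in their label.

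GRB10 is an adaptor protein that binds activated insulin and insulin-like growth factor receptors and restrains their signal and growth. In most mouse tissues Grb10 is transcribed from the maternal copy, whereas neurons use the paternal copy from promoters at an internal CpG island, which carries methylation set in the oocyte. DDC, aromatic L-amino acid decarboxylase, makes dopamine and serotonin from their amino acid precursors, and a Ddc transcript with an alternative first exon is known to come from the paternal copy in the developing mouse heart. A position methylated on one parental copy only gives a level near the middle of the scale in such an assay. The percentages do not separate the parental copies, and the files do not mark the imprint control region.

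Reduced representation bisulfite sequencing reads short fragments between MspI sites, which have the sequence CCGG, so a promoter is seen only where such sites stand close together. The start windows of both genes (RefSeq, GRCm38.p6, minus strand, 5′ to 3′, from 250 bases before to 50 after the transcription start) are shown because they differ in this respect. Capitals mark CpGs that are listed in the table. The Grb10 window is chr11:12037371-12037670 and the Ddc window is chr11:11898095-11898394.
Grb10: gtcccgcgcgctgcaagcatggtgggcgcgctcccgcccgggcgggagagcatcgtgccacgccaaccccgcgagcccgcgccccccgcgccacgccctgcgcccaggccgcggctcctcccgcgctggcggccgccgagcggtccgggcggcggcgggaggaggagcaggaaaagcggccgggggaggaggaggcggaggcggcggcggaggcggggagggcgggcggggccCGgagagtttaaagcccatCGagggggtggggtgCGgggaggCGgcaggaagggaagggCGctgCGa
Ddc: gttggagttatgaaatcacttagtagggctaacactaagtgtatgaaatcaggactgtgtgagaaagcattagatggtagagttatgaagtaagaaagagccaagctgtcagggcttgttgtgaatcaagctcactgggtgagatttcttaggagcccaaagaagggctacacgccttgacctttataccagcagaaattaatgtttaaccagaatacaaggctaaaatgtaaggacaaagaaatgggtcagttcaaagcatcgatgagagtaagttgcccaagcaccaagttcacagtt
The Grb10 window held 45 CpGs and 4 CCGG, and 6 of its CpGs were listed, all near or just past the transcription start. Their means over the samples lay between 0.721% and 5.39%, and together they had a mean of 1.87%. The Ddc window held 2 CpGs and no CCGG, and none was listed. Over all 32851 RefSeq start windows of this length, the median was 7 CpGs, 52.8% held CCGG, 1.93% had at least as many CpGs as Grb10 and 23.3% had at most as many as Ddc. CCGG reads the same on both strands, so 1 search covers both. A second start window of Grb10, chr11:12027922-12028221, held 9 CpGs, and one of Ddc, chr11:11890359-11890658, held 5, and neither had a listed position.

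Sites in the table ranged from 385299 with a value in HFD male 4 to 417081 in HFD female 3. The coverage behind each percentage is not given in the sources used here, so no counting interval was attached to single values. Library numbers run from 2 to 8 in the HFD group and from 9 to 14 in the RD group, so that library order and diet cannot be told apart. Of fixed cell type markers, 2 of 8 cardiomyocyte genes had listed positions within 500 bp of their start (Actn2 and Ryr2, 2.23% and 6.51%), as did 1 of 5 fibroblast genes (Col1a2, 12.6%), 2 of 5 neuron and glia genes (Syt1, 4.09%, and Gfap, 85.8%), and no endothelial or hepatocyte gene. A start level does not measure how many cells of a type a sample held, and the cell makeup of the samples was not tested.

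A position was called unmethylated below a mean of 20%, methylated above 80% and intermediate between these limits. Grb10 had 64 unmethylated, 41 intermediate and 0 methylated positions, or 61.0%, 39.0% and 0%. Ddc had 5 unmethylated, 3 intermediate and 3 methylated positions, or 45.5%, 27.3% and 27.3%. The 410439 autosomal positions of the table divided into 52.4%, 19.9% and 27.7%. With limits of 10% and 90%, Grb10 had 48 unmethylated and 57 intermediate positions, and the 3 methylated positions of Ddc became intermediate. The listed positions of Grb10 did not sample the gene evenly: the first 95.1 kb from its 3′ end held none.

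The Grb10 positions formed an intermediate region inside the gene, a group of 16 just inside the 5′ end that varied between samples, a mostly unmethylated region across the 5′ end, and an upstream pair that was intermediate again. The intermediate region, chr11:12025628-12026768, lay 10.66 to 11.80 kb inside the 5′ end and 1203 to 2343 bp past the second RefSeq start. All of its 36 positions were intermediate, with means from 32.4% to 76.1% and a median of 56.4%. The region around the start, chr11:12037131-12038055, held 51 positions with means from 0.263% to 23.7% and a median of 2.84%, and 2 of the 51 were intermediate. The 16 positions next to it, chr11:12036921-12036994, are not in these figures and had a mean of 14.7%, with 54.9% in RD female 1.

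**Figure D1:**
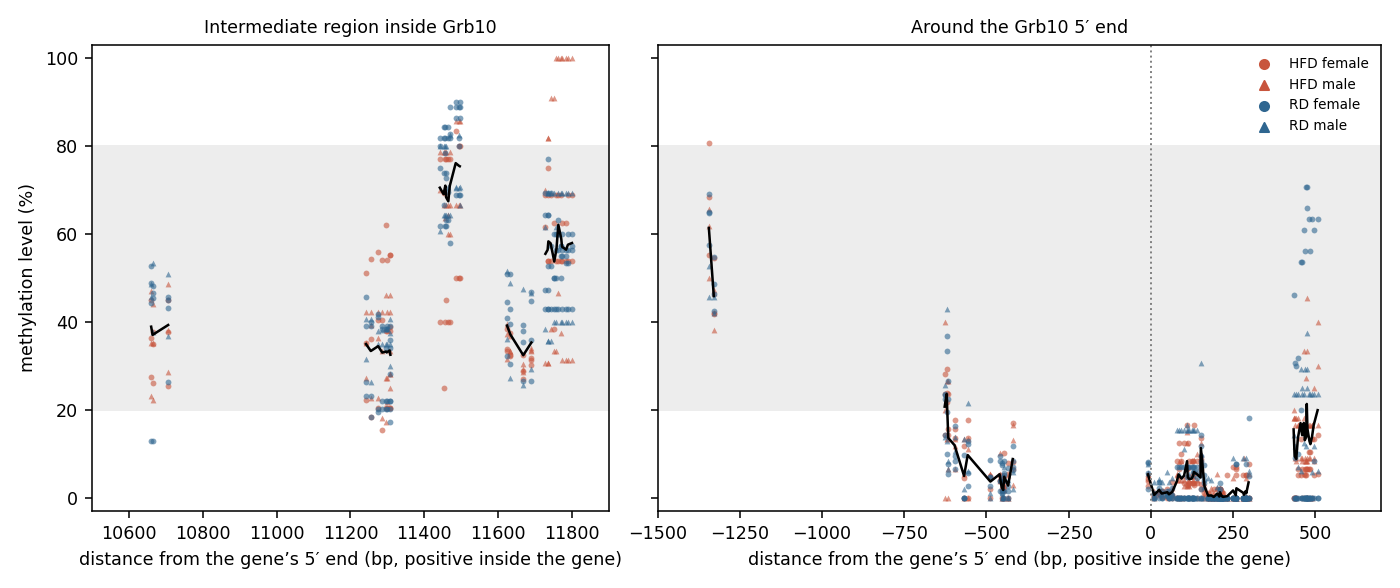
Methylation level (%, vertical axis) of each listed Grb10 position in each sample against the distance from the gene's 5′ end in bp (positive inside the gene), with circles for females, triangles for males, the black line for the mean over samples and the grey band for 20 to 80%. The left panel shows the 36 intermediate positions, with means from 32.4% to 76.1%. The right panel shows the low region around the 5′ end and the upstream pair, with means of 45.9% and 61.4%. It also shows the group of 16 positions just inside the gene, whose sample means ran from 0.606% to 54.9%.

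Positions were joined into stretches where neighbours lay at most 100 bp apart, with a break where positions read in all samples met positions with a missing value. This way of joining does not use the methylation levels. In the intermediate region it gave 5 stretches, and their means went up and down along about 1.1 kb of DNA. The order from the far end towards the gene's start was 57.4% ± 16.8 (SD, n = 10) over 12 positions, 36.0% ± 6.68 (n = 12) over 4, 70.7% ± 12.4 (n = 11) over 9, 33.5% ± 10.7 (n = 12) over 8 and 38.4% ± 10.3 (n = 12) over 3. The 12-position and the 9-position stretch were the ones with missing samples, and they were also the 2 with the highest means. Whether read depth had a part in that was not tested. Neighbouring positions in one stretch share reads: of 335 neighbour pairs in single samples of this region, 136 (40.6%) had equal values (tolerance 1e-9), and the median difference was 2 percentage points. Positions of a stretch were therefore not counted as separate evidence.

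In the 12-position stretch, chr11:12025628-12025700, HFD male 4 had 93.0% and was the only sample above 80%. The remaining HFD samples with values were HFD male 3 at 33.9%, HFD female 3 at 53.2% and HFD female 4 at 67.7%, while HFD female 2 and HFD male 2 had none. The 6 RD samples ran from 40.5% through a median of 55.7% to 67.9%, inside the range of the HFD samples. The position with the lowest mean was 12025676 at 53.7% and the highest was 12025665 at 62.1%.

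In the 4-position stretch, chr11:12025738-12025804, the 6 HFD samples lay close together, from 31.1% through a median of 32.6% to 35.2%. The RD samples spread more widely, from 29.0% through 40.2% to 48.7%, and 2 of them lay below the lowest HFD sample. Its lowest position was 12025760 (32.4%) and its highest 12025804 (39.2%).

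The 9-position stretch, chr11:12025932-12025986, held the highest position of Grb10, 12025943 at 76.1%, and its lowest was 12025963 at 67.4%. HFD samples ran from 42.2% (HFD female 3) through 66.7% to 79.4%, without a value in HFD female 4. The value of HFD male 3, 60.0%, rests on 2 of the 9 positions. RD samples ran from 64.4% through 78.0% to 83.5%, with the upper 2, RD female 1 and RD female 2, above 80%.

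The 8-position stretch, chr11:12026120-12026186, returned to lower levels, with positions from 32.6% at 12026120 to 35.0% at 12026186. HFD samples ran from 19.8% (HFD female 4) through 35.0% to 55.2% (HFD female 2), and RD samples from 20.1% through 35.5% to 39.0%. The groups overlapped over the whole RD range. The 3-position stretch nearest the start, chr11:12026722-12026768, had HFD values from 24.6% through 36.1% to 46.6% and RD values from 17.4% (RD female 4) through 45.9% to 51.1%. Its positions lay between 37.1% at 12026764 and 39.3% at 12026722.

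Differences between neighbouring stretches were compared within samples by a two-sided exact sign-flip permutation test, with p-values adjusted by the Benjamini-Hochberg method over 7 pairs of Grb10 stretches. The 12-position stretch exceeded the 4-position stretch 38 bp away by 21.2 ± 21.2 percentage points (SD), in 9 of 10 samples (exact p = 0.0137, adjusted 0.0160). The 4-position stretch was below the 9-position stretch by 34.2 ± 11.6 points in 11 of 11 samples, the 9-position stretch exceeded the 8-position stretch by 35.9 ± 16.2 points in 11 of 11, and both exact p-values were 0.000977, the smallest that 11 samples allow (adjusted 0.00171). Without HFD male 3, which had 2 of the 9 positions, these differences were 35.0 and 37.8 points in size, each in 10 of 10 samples (exact p = 0.00195). The 8-position and 3-position stretches were not told apart, with a difference of −4.89 ± 13.7 points, the first being higher in 3 of 12 samples (exact p = 0.240). Without HFD female 2 that difference was −7.69 points (exact p = 0.0313), and without RD female 3 it was −2.98 points (exact p = 0.4502).

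A sample that was high in one stretch was not regularly high in the next. Pearson's r between neighbouring stretches of the intermediate region, over the 10 to 12 samples with both values, was −0.44, 0.38, −0.01 and 0.15 in the order above, given as a description because the stretches share libraries. Over the 5 stretches, 4 different samples were highest and 5 different samples were lowest, and the HFD mean was above the RD mean in 2 and below it in 3.

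**Figure D2:**
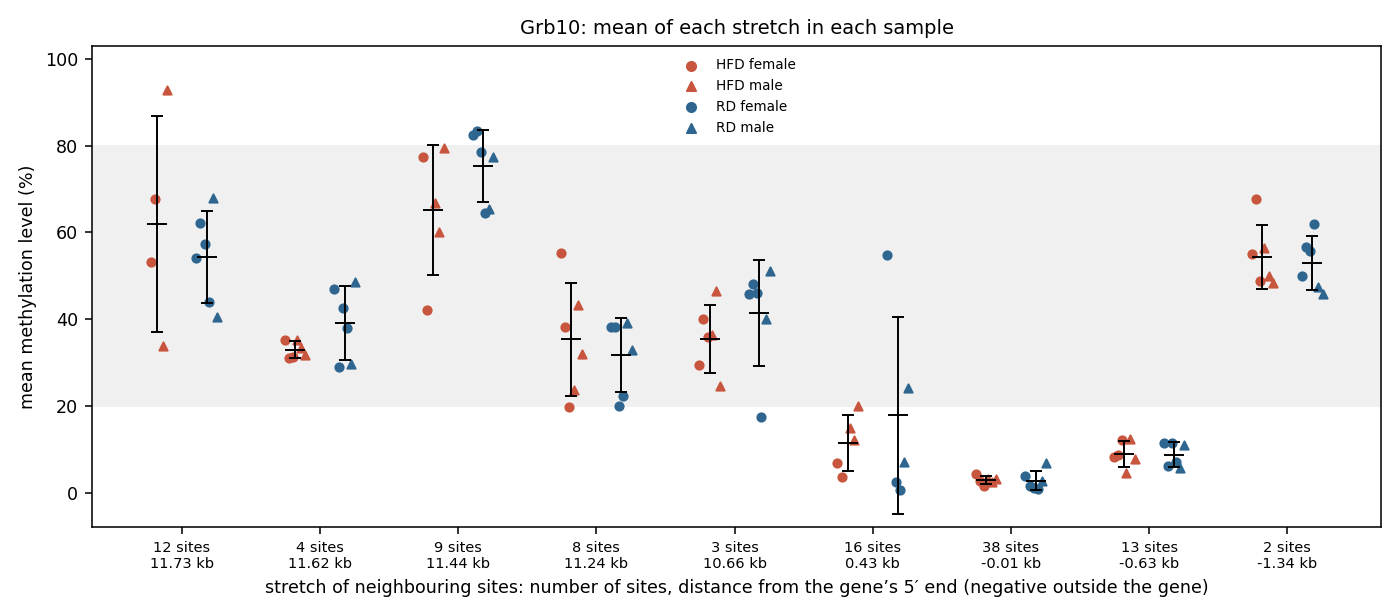
Mean methylation level (%) of each Grb10 stretch in each sample, ordered along the gene from the intermediate region (left) to the upstream pair (right), with HFD in red and RD in blue, circles for females, triangles for males, and bars for the group mean ± SD. The groups overlap in each of the 9 stretches, and the widest spread is in the 12-position stretch, from 33.9% to 93.0%.

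The 16-position stretch just inside the gene, chr11:12036921-12036994, had a mean of 14.7% ± 16.1 (n = 10) and varied widely between samples. RD female 1 had 54.9% and RD male 2 had 24.0%, while the other 8 samples with values lay between 0.606% and 19.97%. Position 12036954, at 21.4%, was its highest, and position 12036986, at 8.91%, its lowest. The 38-position stretch across the gene's 5′ end, chr11:12037131-12037437, was unmethylated in 12 of 12 samples, at 2.80% ± 1.65 with a range of 0.735% to 6.78%. Its extremes were position 12037237 at 0.263% and position 12037276 at 11.4%. HFD samples had a mean of 2.83% ± 0.902 and RD samples 2.77% ± 2.27 (n = 6 each).

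The 13-position stretch upstream, chr11:12037848-12038055, was also unmethylated in 12 of 12 samples, at 8.85% ± 2.77 with a range of 4.48% to 12.4%. Levels within it were uneven, from 1.85% at position 12037877 to 23.7% at 12038049 and 20.8% at 12038055, its outer end. The last pair, chr11:12038757-12038772, was intermediate in 12 of 12 samples, at 53.6% ± 6.52 with a range of 45.7% to 67.6%. Its positions had means of 45.9% and 61.4%. HFD samples had 54.4% ± 7.32 and RD samples 52.9% ± 6.22 (n = 6 each).

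The level stepped up on both sides of the start. The 16-position stretch exceeded the 38-position stretch by 11.6 ± 15.3 points, in 9 of 10 samples (exact sign-flip p = 0.00391, adjusted 0.00547). RD female 1 differed by 51.0 points, and without it the difference was 7.22 ± 6.90 points in 8 of 9 samples (exact p = 0.00781). The 38-position stretch lay below the 13-position stretch by 6.05 ± 3.04 points in 12 of 12 samples, and the 13-position stretch lay below the outer pair by 44.8 ± 7.85 points in 12 of 12. Both exact p-values were 0.000488, the smallest that 12 samples allow (adjusted 0.00171).

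Ddc was covered at 5 separate places. The 5 positions past its 3′ end, chr11:11809120-11809159, fell inside the RefSeq start window of the next gene, Fignl1 (chr11:11808913-11809212), which encodes an AAA-type ATPase. They were unmethylated in 12 of 12 samples, at 2.23% ± 2.45. HFD samples ran from 0.571% through a median of 2.46% to 8.82% (HFD male 4), and RD samples from 0% through 0.521% to 3.29%, so that the groups overlapped. The same run of positions went on past the 5 kb limit, and the 21 positions of the whole cluster that had values in all samples had a mean of 1.66%.

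Inside Ddc, the pair chr11:11832035-11832062 was intermediate in 12 of 12 samples, at 48.5% ± 4.68 with a range of 41.7% to 57.6%. Its positions differed, with 37.8% at 11832035 and 59.2% at 11832062. HFD samples had 49.4% ± 5.65 and RD samples 47.7% ± 3.80 (n = 6 each), and the RD range lay inside the HFD range. The single position 11882335, which the noncoding gene 1700042O10Rik also covers, was methylated in 11 of 12 samples, at 89.2% ± 6.13. RD female 3 was the exception at 73.1%. The pair chr11:11893108-11893124, about 5 kb inside the 5′ end, was above 80% in 10 of the 11 samples with values and at 80% in HFD female 3, with a mean of 88.0% ± 4.50. Upstream of Ddc, the single position 11901439 stood at 23.9% ± 6.35 (n = 11), and was intermediate in 8 samples and unmethylated in 3.

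**Figure D3:**
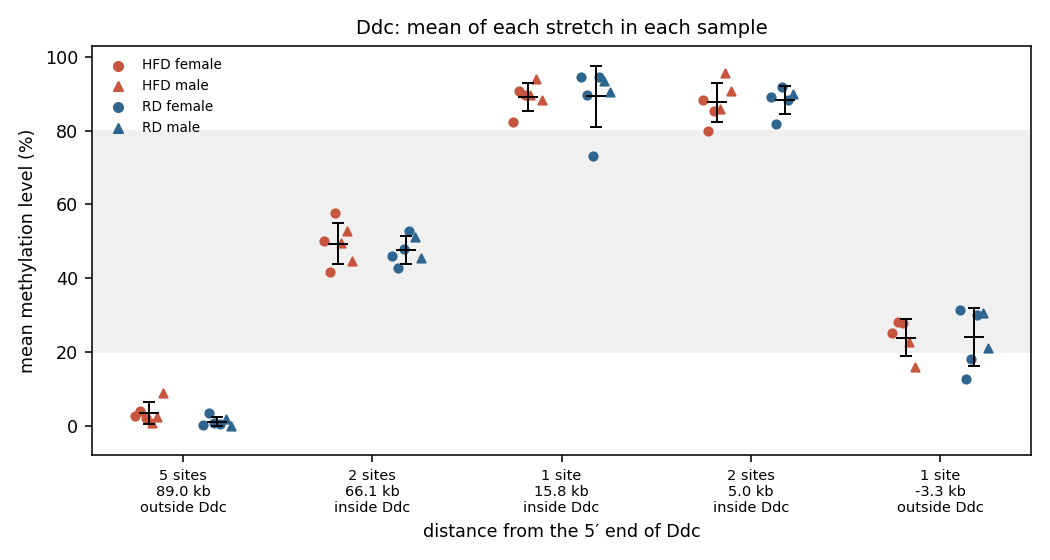
Mean methylation level (%) at the 5 covered places of Ddc in each sample, with HFD in red and RD in blue, circles for females, triangles for males, bars for the group mean ± SD, and the distance from the 5′ end of Ddc in kb below each place. Levels go from 2.23% past the 3′ end through 48.5% to 89.2% and 88.0% inside the gene and 23.9% upstream.

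Sample by sample, most Grb10 positions were unmethylated or intermediate. Positions with a value numbered from 80 (HFD female 4) to 105. Above 80% stood 14 positions in HFD male 4, 7 in RD female 1, 7 in RD female 2, 4 in RD female 3, 2 in RD male 2 and 1 each in HFD female 2 and HFD female 3, and 0 in the other 5 samples. RD female 1 and RD male 2 had the most intermediate positions, 50 and 54, against 27 to 40 in the other 10. At Ddc, each sample had 5 or 6 unmethylated, 2 to 4 intermediate and 1 to 3 methylated positions.

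The maternal diet was compared with limma on log2((rate + 0.05)/(1 − rate + 0.05)) with sex as a second term, and p-values were adjusted over all autosomal features tested. No tested position, cluster or stretch of either gene passed. Of the 116 positions, 36 had values in all samples and a mean of 5 to 95%, and 0 of 36 were called, where 0.0102% of the 157524 positions tested were called in the whole table. At an unadjusted p below 0.05, the counts were 0 of 36 against 6.53% of all. The 5 smallest p-values belonged to positions 12025804, 12037848, 12025760, 12038772 and 12025738, all of Grb10. The smallest was at 12025804, where HFD samples had a mean of 35.7% and RD samples 42.7% (limma, adjusted p = 0.853). Data were simulated on this table, with shifts at 200 positions drawn at random from those tested. There the position test found 0% of shifts of 1 log2 unit and 66.5% of shifts of 2 units.

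For spacing-based clusters (at least 3 positions with gaps of at most 300 bp, averaged over positions read in all samples) the count was 0 of 5, where 0.0181% of 38692 clusters were called. At an unadjusted p below 0.05, it was 0 of 5 against 6.94%. The larger Grb10 intermediate cluster, chr11:12025628-12026186, listed 33 positions, of which the 12 read in all samples are the 4-position and 8-position stretches. It had 34.5% ± 8.98 in HFD and 34.2% ± 5.59 in RD samples (n = 6 each), with an effect of −0.00126 log2 units and a 95% interval of −0.53 to 0.53 (limma, adjusted p = 1). The smaller one, chr11:12026722-12026768, had 35.5% ± 7.76 and 41.4% ± 12.3, with an effect of −0.34 and an interval of −1.06 to 0.39 (adjusted p = 0.899). That effect was −0.60 without RD female 4, −0.20 without HFD male 4 and −0.21 without RD male 2. The cluster at the gene's 5′ end had an effect of 0.01 with an interval of −0.37 to 0.39, the one upstream 0.05 with −0.39 to 0.48, and the cluster past the 3′ end of Ddc 0.08 with −0.31 to 0.47. Shifts inside those intervals were not excluded. The Ddc cluster had a mean of 1.66%, and its effect was 0.27 with an offset of 0.01 in place of 0.05. In the same simulation, the cluster test found 65.5% of shifts of 1 log2 unit and 94.5% of shifts of 2 units. Those shifts were placed on 200 clusters drawn at random from all 38692. Detection at the Grb10 and Ddc clusters themselves was not simulated.

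For stretches the count was 0 of 11, where 0.0137% of 73038 were called, and 0 of 11 against 6.91% at an unadjusted p below 0.05. These were 9 stretches of Grb10 and 2 of Ddc, and the pair at 11893108 was left out because a single RD male had a value there. The smallest p-value was at the 7-position stretch that holds the 5 positions past the 3′ end of Ddc, with 3.39% in HFD and 1.13% in RD samples, an effect of 0.43 log2 units and an interval of −0.09 to 0.96 (limma, adjusted p = 0.784). Over those 5 positions HFD male 4 had 8.82%, and the next highest HFD sample, HFD female 3, had 4.06%. The stretch fit was not repeated without single samples. The next smallest p-value was at the 4-position stretch of Grb10, where HFD samples had 33.0% ± 1.88 and RD samples 39.1% ± 8.48 (n = 6 each, limma, adjusted p = 0.810).

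Averages per sample were compared as single values. Over its 68 positions read in all samples, HFD samples had 12.6% ± 2.09 and RD samples 12.6% ± 2.57 (n = 6 each), a difference of −0.0887 points (two-sided exact permutation within sexes, p = 0.951). Its sign changed with single samples left out, from −0.777 to 0.625 points, and over every position with a value in the sample it was −3.86 points (exact permutation p = 0.186). That last value compares unlike sets of positions, because the 12-position and 9-position stretches lack values in HFD samples alone. Taken position by position and averaged over all 105, the difference was −0.961 points. The 15 such positions of the 2 intermediate clusters had 34.7% ± 7.35 in HFD and 35.7% ± 6.24 in RD samples, a difference of −0.952 points (exact permutation p = 0.814), and −2.99 to 0.779 points with single samples left out. Over every position with a value it was −3.23 points (exact permutation p = 0.520), again with unlike sets of positions, and position by position over the 36 it was −0.115 points. Individual samples ran from 25.5% in RD female 4 to 44.7% in HFD female 2. The 2 clusters taken 1 at a time differed by 0.301 and −5.96 points, the second with an exact permutation p of 0.363.

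Over the 8 Ddc positions, HFD samples had 25.6% ± 1.60, with a range of 23.9% to 27.7%, and RD samples 23.7% ± 1.54, with a range of 21.5% to 25.6%. The difference of 1.88 points did not pass (exact permutation p = 0.0714, where 0.00286 is the smallest possible). It had a p of 0.0429 without HFD male 2 (2.21 points) and of 0.0357 without RD male 1 (2.25 points), the only 2 of 12 samples whose removal brought it under 0.05. Without the flanks, which removes the 5 positions at Fignl1, it was 1.11 points (exact permutation p = 0.637), and over every position with a value it was 3.48 points (p = 0.174, exact permutation). In that last value RD male 2 lacks the pair at 88.0% and HFD male 4 the position at 23.9%, and position by position over the 11 the difference was 1.24 points.

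Within females 0 of 5 member clusters were called for diet (0% of all clusters), and within males 0 of 5 (0.00517% of all). At an unadjusted p below 0.05 the counts were 0 of 5 in females against 5.36% of all clusters, and 0 of 5 in males against 6.96%. The diet-by-sex interaction was called at 0 of 5 clusters (0% of all) and 0 of 11 stretches (0.00137% of all), and unadjusted at 0 of 5 against 5.22% and 0 of 11 against 5.24%. Its smallest p-value was at the cluster of the 5′ end of Grb10 (limma, adjusted p = 0.960). Between the sexes 0 of 5 clusters (0.0129% of all) and 0 of 11 stretches (0% of all) were called, and unadjusted 0 of 5 against 5.46% and 0 of 11 against 5.41%. The stretch with the smallest sex p-value was the upstream pair of Grb10, with 56.5% in females and 49.6% in males (limma, adjusted p = 0.922). With 2 RD males, the contrast within males rests on few samples.

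Other imprinted genes with a germline methylated region were set beside Grb10 in a fixed list of 17, of which 12 had intermediate clusters, 25 in all. Of these clusters 0 were called higher and 1 lower in HFD (Peg13, a noncoding imprinted gene, limma adjusted p = 0.00465), where 0.0569% of 10552 intermediate clusters were called. Their median difference was −5.07 points with 20 of 25 lower in HFD, against −0.497 points and 56.6% lower over all intermediate clusters. The gene medians were lower in 9 and higher in 3 of 12 genes, from −15.3 points at Plagl1, a growth-regulating zinc finger gene, to 6.84 points at Nap1l5. The larger Grb10 cluster, at 0.301 points, lay between Nnat (−0.614) and H19 (0.552), and the smaller, at −5.96 points, between Igf2r (−7.05) and Gnas (−1.71). These places moved with the samples and positions used. Without RD female 4 the smaller cluster differed by −10.8 points, and without HFD male 4 by −3.79 points. Position by position over its 33 listed positions the larger cluster differed by 0.416 points, and the 25 clusters of the list, taken the same way, had a median of −4.14 points with 19 lower. Over positions read in all samples, the level of the larger Grb10 cluster was 34.4%, and 1 of the 25 clusters, which ranged from 27.3% to 76.1%, had a lower mean. Over all of its 33 listed positions the level was 52.9%, with 13 of the 25 clusters lower, 12 higher and a list median of 52.2% on the same basis.

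**Figure D4:**
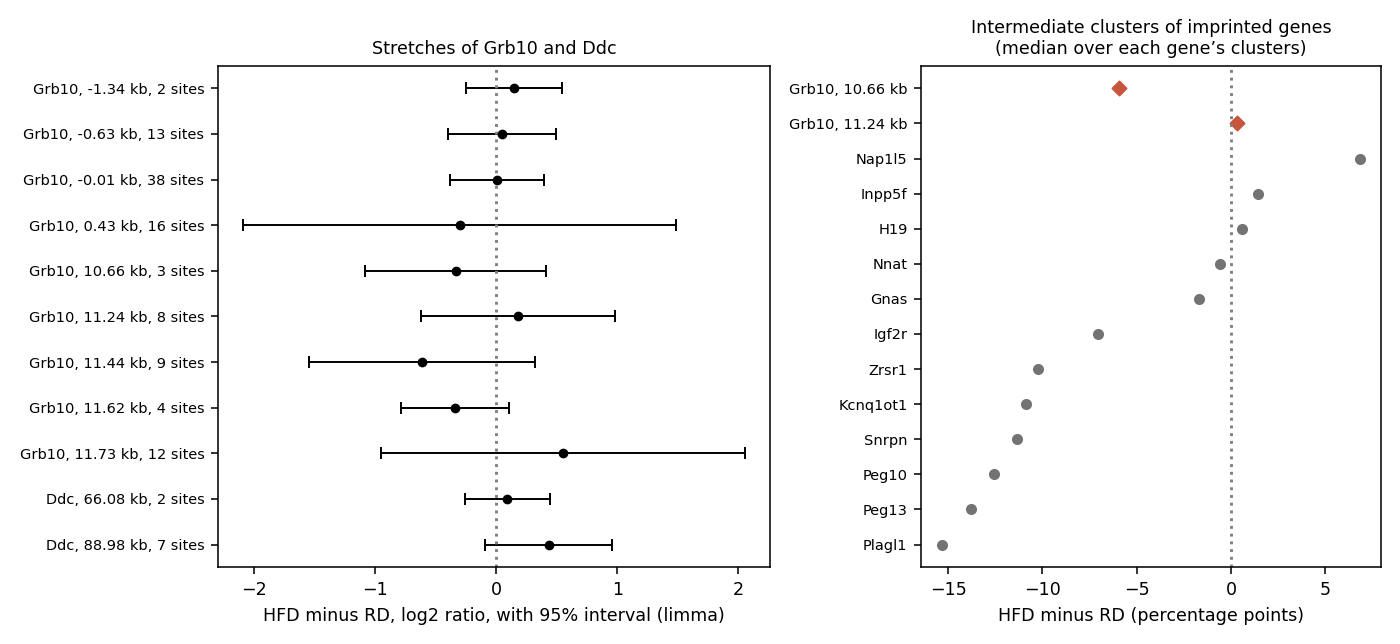
Left, the diet effect (HFD minus RD, log2 ratio) with its 95% interval from limma for the 11 stretches of Grb10 and Ddc, labelled by distance from the gene's 5′ end, where each interval includes 0. Right, the difference of mean methylation (HFD minus RD, percentage points) at the 2 Grb10 intermediate clusters (diamonds) and the median of the intermediate clusters of 12 other imprinted genes (grey points), which run from −15.3 at Plagl1 to 6.84 at Nap1l5.

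Genes that work with GRB10 at the insulin and growth factor receptors (19 genes such as Insr, Igf1r, Irs1, Akt1 and Mtor) had 62 clusters, of which 0 were called, where 0.0181% of all clusters were, and 31 were lower in HFD. Their median difference was −0.00735 points, against −0.0123 points and 50.4% lower over all 38692 clusters. The catecholamine and serotonin genes around DDC (9 of 16 with clusters, among them Th, tyrosine hydroxylase, and Dbh, dopamine beta-hydroxylase) had 16 clusters, 0 called (0.0181% of all) and 5 lower, with a median of 0.709 points. The chromosome 11 neighbourhood list, which holds Grb10 and Ddc themselves, had 12 clusters from 7 of 8 genes, 0 called (0.0181% of all) and 6 lower, with a median of −0.0592 points. At that share no call is to be looked for in lists of this size, so nothing is read from these zeros.

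The larger Grb10 intermediate cluster, over its 12 positions read in all samples, was compared over the 12 samples with 7329 intermediate clusters inside or within 1 kb of a gene. The 5 genes with the highest Pearson's r were Sox5 (0.93), Cog1 (0.91), Gm46561 (0.90), Epc1 (0.88) and Ppargc1b (0.87). Over all clusters compared the median r was 0.04 and the 95th percentile 0.50. These are the highest of many values over 12 samples that share their libraries, and are given as a description.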

How the data were processed

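Per the labels' protocols, left ventricle DNA was cut with MspI, bisulfite-converted and sequenced, and the submitters' processing notes name FastQC, Trim Galore, Bismark 0.19, limma and mm10. The authors deposited 1 table of percent methylation per CpG and sample, which was used as it stands. Which coverage filter was set, and how the strands were joined, is not given in the sources used here. Each column matched 1 sample. Bisulfite does not separate 5-methylcytosine from 5-hydroxymethylcytosine, so a percentage covers both.

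Rates were tested with limma 3.58.1 (R 4.3.3) over the autosomal features of the whole table, with diet and sex as terms. The two-sided p-values were Benjamini-Hochberg adjusted, and 0.05 was the threshold. Position tests used autosomal positions with values in all 12 samples and a mean of 5 to 95%. Contrasts within a sex came from 1 mean per diet and sex. Permutations moved diet labels within sexes (350 arrangements). The limma test of diet was tried on simulated data at position and cluster level, and the other tests were not. Members, lists and markers were chosen with earlier results of these data known, and the stretches, their neighbour tests, the split of the 2 clusters, the comparisons position by position or over every listed position of the imprinted clusters, and the neighbour tests and smaller cluster without single samples were added after the data were seen. Named positions are the lowest and highest mean of each stretch or its ends, and the 5 smallest diet p-values; likeness names the 5 highest r. Plots used Python 3.11.15, pandas 2.3.3 and matplotlib 3.10.9.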

Additional observations from a re-analysis of the deposited data

Results flagged for a closer look

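A sample was marked where its gap to the nearest other sample of its diet group exceeded Dixon's critical value at 95%. Of 36 groups of values examined, 3 had such a sample, where chance marks about 1 in 20 groups, or 1.8 here. At the single Ddc position 11882335, RD female 3 had 73.1%, and the other RD samples had between 89.7% and 94.6%. At the 3-position stretch of Grb10, chr11:12026722-12026768, RD female 4 had 17.4%, and the other RD samples lay between 40.1% and 51.1%. The number of positions with a value was low in HFD male 4, with 385299. In the other HFD samples it lay between 406225 and 417081.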

How the results depend on the processing

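Every alternative fit for diet, sex and their interaction called 0 member positions, clusters or stretches, as the main fits did. Of 56 alternative values for the diet differences of sample means, 41 kept direction and side of the threshold, 13 changed sign and 2, both for Ddc, fell under 0.05. For the mean of all Grb10 positions (−0.0887 points) the log2 ratio gave 0.0349, every position with a value in the sample gave −3.86 (exact permutation p = 0.186; −0.961 position by position), and leaving out single samples gave −0.777 to 0.625. For the Grb10 intermediate clusters (−0.952 points) every position with a value gave −3.23 (exact permutation p = 0.520; −0.115 position by position), leaving out single samples −2.99 to 0.779, and the larger cluster alone 0.301. For the mean of all Ddc positions leaving out single samples gave 1.43 to 2.25 points, with exact permutation p from 0.0357 to 0.155. Of single clusters, on the log2 scale, chr11:12025628-12026186 gave 0.00559 without a sex term and −0.21 to 0.17 without single samples, chr11:12036921-12037437 gave −0.14 with missing values allowed and −0.10 to 0.17, chr11:12037848-12038055 gave −0.0411 to 0.164, and chr11:12026722-12026768 −0.60 to −0.20. As untransformed fractions the first gave 0.00227 and the second −0.00164. The Ddc cluster, at 0.0776 in the main fit, gave 0.265 with an offset of 0.01 and 0.00623 to 0.197 without single samples. Deviations of same-numbered samples had r of −0.0295 to 0.0104 in 4 pairs, and −0.0301 to 0.0405 in 14 pairs with other numbers. With 2 RD males, the values of each HFD male mirror each other (HFD male 2: 0.0295 and −0.0295). These values therefore do not settle whether the numbers pair samples. With a replicate block, sample means were compared in the 4 pairs of the same sex and number alone, without the samples that had no partner. The differences were 0.241 points for all Grb10 positions, 0.344 points for its intermediate clusters and 1.54 points for Ddc (exact permutation p = 0.125, the smallest that its 16 arrangements allow). In limma on all 12 samples with the block, the log2 values were 0.22 for chr11:12025628-12026186, −0.0205 for chr11:12037848-12038055 and −0.0110 for the Ddc cluster. With limits of 10% and 90% the count of methylated positions was 0 in place of 3. The planned minimum of 20 reads was not run, because the percentages come without coverage. For the sign changes the cause was not tested, and no depth limit could be given.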
